A study of Homo sapiens with 1 sample.

Results

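The miR-548 family is a large group of primate-specific miRNAs. Its members were taken as every non-control entry of the array whose name starts with hsa-miR-548, with no use of any measured value. This gave 70 mature miRNAs of the 2549 human miRNAs on the array, read by 1400 of the 50980 human miRNA spots and by 173 of the 5893 human miRNA probes. A single array was read, from DLD-1, an established line of epithelial cells from a human colorectal carcinoma. The cells had been transfected with the negative control plasmid, labelled pLVX-NC. Total RNA labelled with Cy3 was hybridized to this single-colour miRNA array. Cells overexpressing circLONP2 are not analysed here, so no value below is a change between conditions, and with 1 array no test between groups and no p-value could be given.

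A miRNA is a short RNA cut from a hairpin precursor. Each hairpin can release a product from either side, the 5p and the 3p arm, and bases 2 to 8 of the product, the seed, select the target mRNAs by pairing. The miR-548 precursors derive from MADE1, a short palindromic DNA transposon of the mariner type. An RNA copy of such an element folds back on itself, so that many genomic copies each provide a hairpin of similar sequence. miR-570, miR-579 and miR-603 come from elements of the same kind.

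RefSeq (GRCh38.p14) gave precursor sequences for 5 members, with perfect inverted repeats of 7 (MIR548AS), 9 (MIR548AR), 12 (MIR548AT), 13 (MIR548AW) and 29 bases (MIR548M). The precursor of a detected member and the one with the longest repeat are printed to show the fold-back. Capitals mark the longest stretch that is repeated further on as its perfect reverse complement. MIR548AW lies at chr9:132945707-132945771 on the plus strand, within the bounds of GFI1B, and its repeats of 13 bases enclose 23 bases. MIR548M lies at chrX:95063141-95063226 on the minus strand, in no other annotated gene, and its repeats of 29 bases enclose 26 bases.

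MIR548AW: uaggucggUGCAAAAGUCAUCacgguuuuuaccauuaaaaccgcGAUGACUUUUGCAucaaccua
MIR548M: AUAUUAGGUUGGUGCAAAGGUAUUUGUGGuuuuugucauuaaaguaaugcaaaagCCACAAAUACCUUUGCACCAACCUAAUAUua

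Mature sequences were matched by name for 49 of the 70 members (70%). The mature sequences of 5 detected members are shown first, then those of 4 undetected members, each close to miR-548u or miR-548j-5p or with the seed of miR-548ag, 5′ to 3′ with the seed in capitals. Over whole sequences, the nearest matched member to miR-548q was 12 edits away (bases changed, added or removed), so none is shown for it.

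miR-548q: gCUGGUGCaaaaguaauggcgg
miR-548u: cAAAGACUgcaauuacuuuugcg
miR-548j-5p: aAAAGUAAuugcggucuuuggu
miR-548b-3p: cAAGAACCucaguugcuuuugu
miR-548ag: aAAGGUAAuugugguuucugc
miR-548ap-5p: aAAAGUAAuugcggucuuu
miR-548j-3p: cAAAAACUgcauuacuuuugc
miR-548ai: aAAGGUAAuugcaguuuuuccc
miR-548ba: aAAGGUAAcugugauuuuugcu

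The genes of these products lie apart from each other in GRCh38.p14. miR-548q is at chr10:12725325-12725346 on the minus strand, within CAMK1D, a calcium/calmodulin-dependent kinase gene. miR-548u is at chr6:57390180-57390202 on the plus strand, within PRIM2, which encodes a subunit of DNA primase. miR-548j-5p is at chr22:26555274-26555295 on the minus strand, within TPST2, a protein tyrosine sulfotransferase gene. miR-548b-3p is at chr6:119069062-119069083 on the minus strand, within FAM184A. miR-548ag has a copy at chr4:60922623-60922643 and another at chr20:60564565-60564585, both on the plus strand and outside other named genes. The annotation used here gives gene bounds without exons, so whether a site is exonic or intronic was not determined. Strands of the miRNA and of the enclosing gene were not compared. Thus "within" refers to position only and not to a shared transcript.

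Most of the family was not detected in DLD-1 cells. The scanner software gave its detection flag to 6 of 70 members (8.57%), while it gave this flag to 56.8% of all human miRNAs on the array. Outside the family the share was 1442 of 2479 (58.2%). Groups of late-numbered miRNAs, which were not matched to the family, did not share this low rate. Of the miRNAs numbered from miR-4417 to miR-4540, 89 of 142 (62.7%) were detected. Of those numbered from miR-4632 to miR-4804, 149 of 280 (53.2%) were detected. Members share 1 array and similar sequences and are not independent, so these shares are a description. The 6 detected members were miR-548q, miR-548u, miR-548j-5p, miR-548b-3p, miR-548aw and miR-548ag.

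All 6 also stood above the negative controls. The array holds 1000 spots of 7 negative control probes, which match no miRNA, and the 99th percentile of their background-subtracted brightness was 12.5 scanner units. The brightest probe of each detected member exceeded this level, and no undetected member had a probe above it. The share of all human miRNAs that were detected and passed this level was 55.9%. Of the 1448 detected human miRNAs, 1424 passed it, so passing adds little to the flag. The level is a percentile of single spots, whereas members were judged by probe means. The brightest negative control spot reached 27.9, above every probe mean of miR-548aw and miR-548ag.

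The number of members called depended on the criterion. When a share of at least 0.5 of any probe's spots had to be well above background, 5 members were called, against 49.9% of all human miRNAs, and miR-548ag was lost. When every spot had to be, 4 were called, against 45.8% of all, and miR-548aw was lost too. The loosest criterion asked for the same share of spots with a positive signal that differed from background by the software's own test, and it called 13 members (18.6%), against 68.9% of all human miRNAs.

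**Figure D1:**
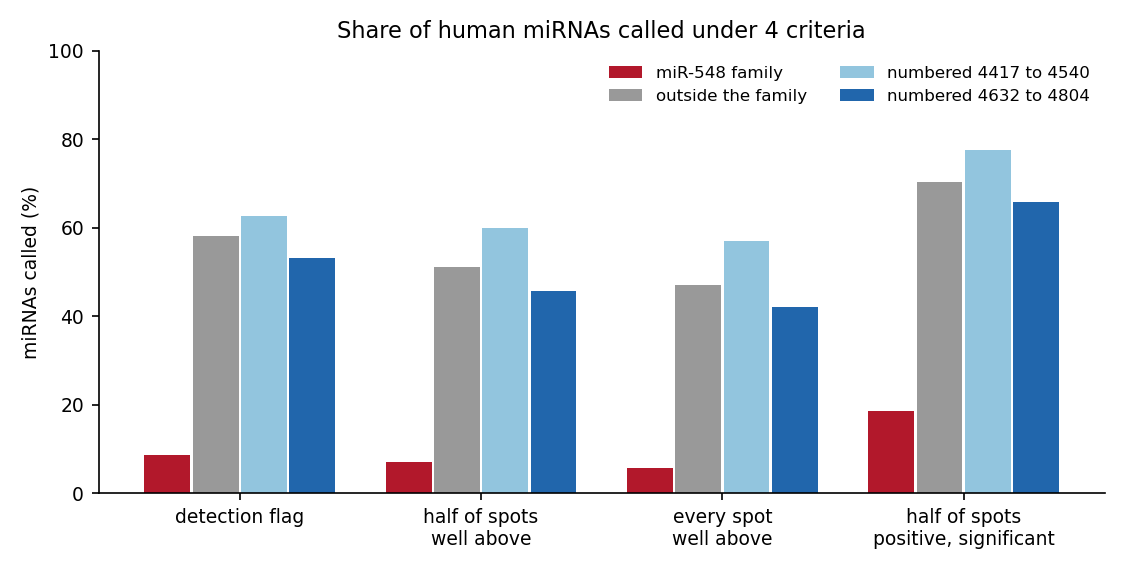
Percentage of miRNAs called (y axis, from 0) under 4 criteria (x axis) for the 70 miR-548 members, the 2479 other human miRNAs and both late-numbered groups on the 1 control array. The family bar is the lowest under each criterion, from 5.71% to 18.6%, while the other bars lie between 42.1% and 77.5%.

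miR-548q was the brightest member. Its 20 spots ran from 100.8 to 147 scanner units with a median of 126, and the mean was 125 ± 12.0 (SD, n = 20 spots). Its probes had means of 129 and 122, a log2 difference of 0.08 (standard error 0.06). Every spot was well above background, and the brighter probe was 10.3 times the level of the negative controls. By the total signal that the software sums for each miRNA, it still ranked only 495th of the 1448 detected human miRNAs.

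miR-548u followed, with 19 spots from 59.3 to 78.3, a median of 69.3 and a mean of 68.8 ± 4.72 (SD, n = 19 spots). Its probe means were 67.5 and 70.0, a log2 difference of 0.05 (standard error 0.04). The spots of miR-548u and of miR-548q did not overlap. Its brighter probe was 5.60 times the negative control level.

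miR-548j-5p had 18 spots from 26.0 to 60.8, a median of 52.7 and a mean of 49.8 ± 9.18 (SD, n = 18 spots). Its 3 probes had means of 42.8, 52.9 and 56.0, and all of their spots were well above background. From dimmest to brightest they spanned 0.43 on the log2 scale (standard error 0.16). Its brightest probe was 4.48 times the negative control level.

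miR-548b-3p was the least uniform of the detected members. Its 18 spots ran from -5.21 to 92.3, because its 4 probes disagreed. The means were 60.0 ± 31.1 (SD, n = 5 spots), 41.8 ± 2.70 (SD, n = 4 spots), 25.8 ± 1.91 (SD, n = 4 spots) and -3.40 ± 2.16 (SD, n = 5 spots). No spot of the last probe was well above background, so 1 of 4 probes for the same miRNA gave no signal above background. The brightest probe was itself split, with spots at 22.7, 31.0, 73.8, 80.3 and 92.3. Its 3 brighter probes spanned 1.02 on the log2 scale, a spread that no other detected member showed. The mean over all spots, 30.7 ± 29.3 (SD, n = 18 spots), therefore averages 3 probes with signal and 1 without.

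miR-548aw and miR-548ag were close to the limit. The 20 spots of miR-548aw ran from 14.7 to 34.8, with a median of 22.3 and a mean of 22.9 ± 5.16 (SD, n = 20 spots), and 16 of them were well above background. Its brighter probe was 2.04 times the negative control level. The 17 spots of miR-548ag ran from 15.2 to 22.1, with a median of 17.9 and a mean of 18.2 ± 1.92 (SD, n = 17 spots), and 6 of them were well above background. Both of its probes had a mean near 18 scanner units (18.2 and 18.1), and the brighter was 1.46 times the negative control level.

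**Figure D2:**
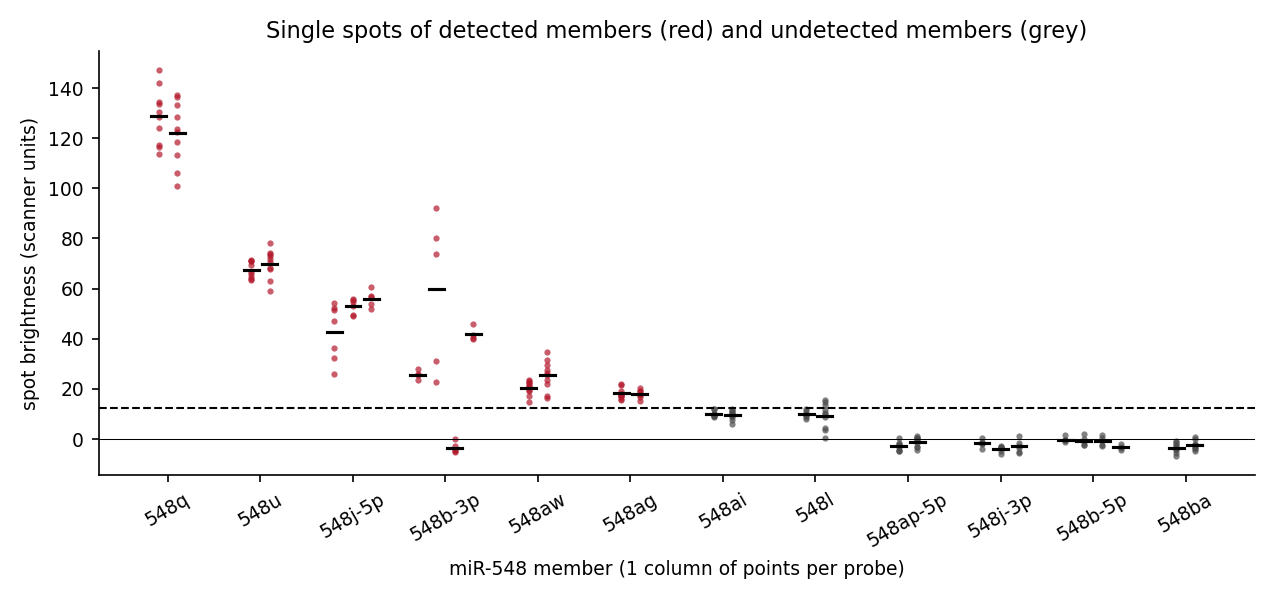
Background-subtracted brightness of single spots (y axis, linear scanner units) for the 6 detected members in red and 6 undetected members in grey. Each column of points is 1 probe, black bars are probe means, and the dashed line is the negative control level, 12.5. 1 probe of miR-548b-3p lies at -3.40 while its other 3 probes have means from 25.8 to 60.0.

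Even the detected members were dim for detected miRNAs. The median total signal of the 1448 detected human miRNAs was 23.1, and 2 of 6 members exceeded it, miR-548q with 46.1 and miR-548u with 25.3. The others had total signals of 18.5 (miR-548j-5p), 11.7 (miR-548b-3p), 8.44 (miR-548aw) and 6.68 (miR-548ag). Together the 6 members made up 0.0554% of the summed total signal of detected human miRNAs. Brightness depends on the probe as well as on the RNA, so these ranks order signals and not amounts of RNA.

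The 64 undetected members lay at the level of the negative controls. Their mean brightness had a median of -2.36 and ran from -4.36 to 9.90, and it was below 0 for 54 of 64 (84.4%). A value below 0 means that the spot was darker than the background that the software had subtracted. Single negative control spots had a median of -2.35, and 77.3% of them were below 0. The member values are means over spots, so these shares are not measured alike. Undetected miRNAs outside the family had a higher median, -0.38, and 54.1% of these 1037 were below 0. None of the 1230 spots of undetected members was well above background (0 spots). The same software set this call and the detection flag, so this count is no separate support. Over all 1342 member spots used, detected members included, 6.86% were well above background, against 45.0% of all human miRNA spots used.

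**Figure D3:**
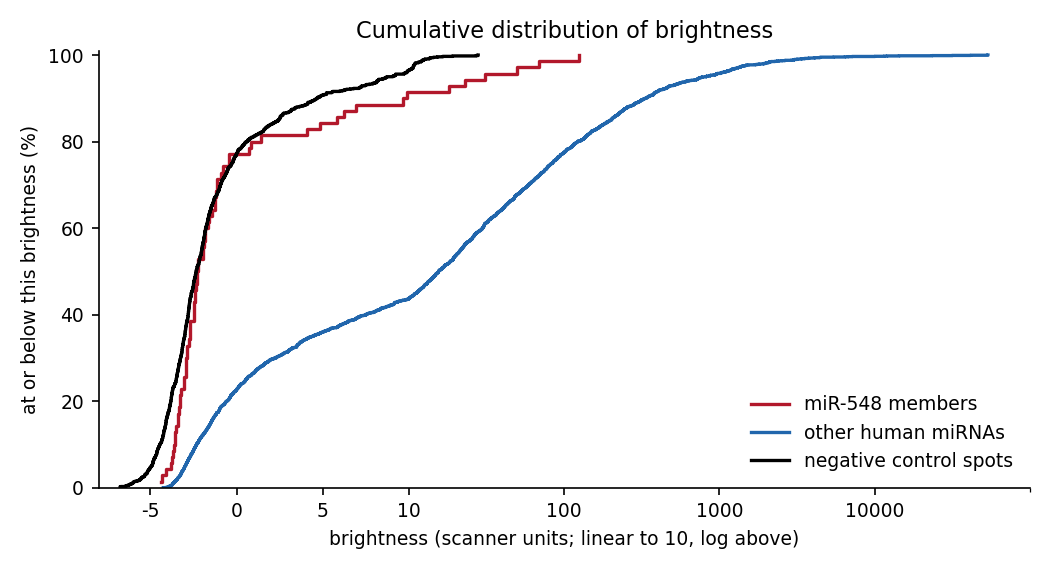
Cumulative percentage (y axis) of miRNAs or spots at or below a brightness (x axis, scanner units, linear to 10 and logarithmic above) for the mean of each of the 70 members, the mean of each of the 2479 other human miRNAs and the 1000 single negative control spots. The curve of the members follows that of the negative controls up to about 0 (medians -2.26 and -2.35), while the other human miRNAs have a median of 15.5.

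The negative control probes were themselves unequal, which bears on the upper end of the undetected members. Of the 7 probes, 5 had means from -3.12 to -2.48, another had 2.31 and the brightest 8.55. The mean brightness of 57 undetected members was at or below 2.31, that of 5 lay between 2.31 and 8.55, and 2 members were above 8.55. These last were miR-548ai, with spots from 6.24 to 12.2 and a mean of 9.90 ± 1.45 (SD, n = 20 spots), and miR-548l, with spots from 0.36 to 15.7 and a mean of 9.63 ± 3.77 (SD, n = 18 spots). Both were chosen for naming once their values were known. Both had 0 spots well above background, but all 20 spots of miR-548ai and 16 of 18 spots of miR-548l were positive and significant. The 5 between were miR-548e-3p (mean brightness 6.91), miR-548ad-3p (mean brightness 6.24), miR-548ao-3p (mean brightness 5.85), miR-548h-3p (mean brightness 4.86) and miR-548ay-3p (mean brightness 4.07). Signal from a miRNA at low level and background of a probe cannot be told apart in this range.

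**Figure D4:**
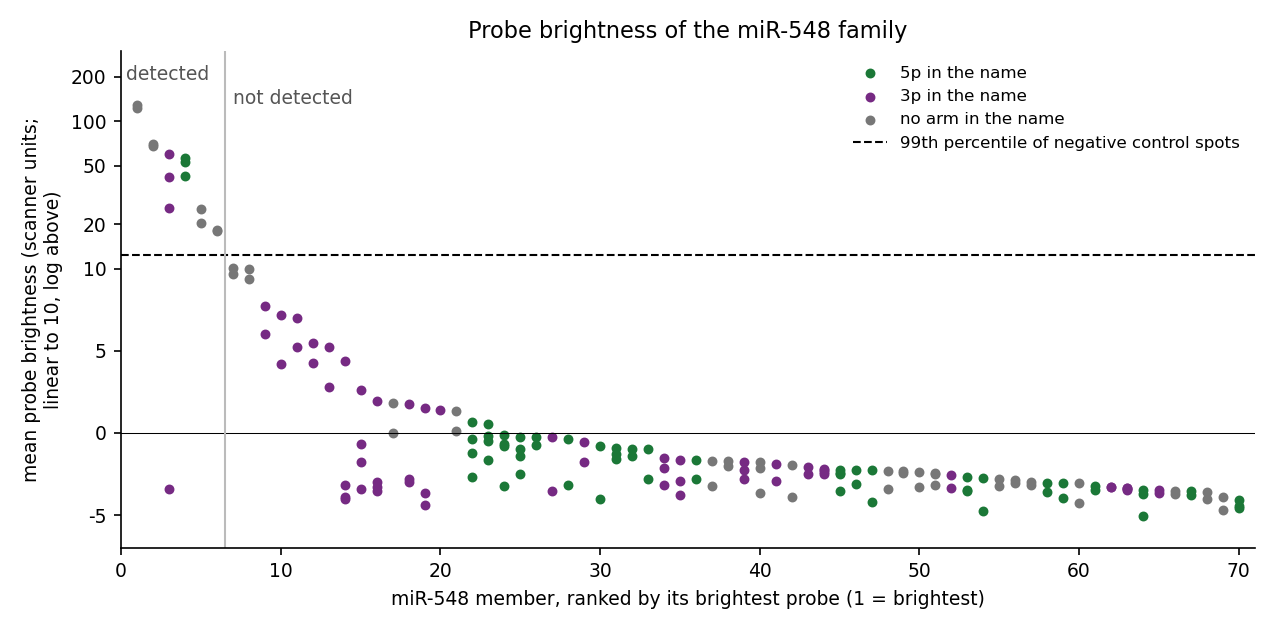
Mean brightness of each of the 173 probes (y axis, scanner units, linear to 10 and logarithmic above) against the rank of the 70 members by their brightest probe (x axis). Colours give the arm in the name, the dashed line is the negative control level (12.5), and the grey line separates the 6 detected members from the 64 undetected ones. Probes of undetected members reach 10.1 at most.

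Few members of either arm were detected. The flag was given to 1 of 23 members named 5p (4.35%), to 1 of 24 named 3p (4.17%) and to 4 of 23 with no arm in the name (17.4%). Outside the family, 519 of 837 5p products (62.0%) and 431 of 851 3p products (50.6%) were detected. The difference between the arms, 5p minus 3p, was thus 0.18 percentage points in the family and 11.4 outside it. Under the loosest criterion the family's difference turned to -20.7 percentage points, since miR-548b-3p and the 5 dim 3p products named above were called and miR-548j-5p was the 5p product called.

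For 20 hairpins both arms were on the array, and in none of them were both detected (0 of 20). Outside the family both arms were detected in 255 of 790 hairpins (32.3%). A single arm was detected in 2 of the 20 miR-548 hairpins (10%), on opposite sides, and in 374 of the 790 outside (47.3%). Neither arm was detected in 18 of the 20 (90%) and in 161 of the 790 (20.4%). miR-548j-5p had a mean brightness of 49.8, and miR-548j-3p of -2.77 ± 1.85 (SD, n = 20 spots). miR-548b-3p had a mean of 30.7 and miR-548b-5p of -1.12 ± 1.80 (SD, n = 19 spots). The undetected arms were not above background, so a ratio of brightness between arms has only a lower bound. The bound was the dimmest probe on the array with every spot well above background (20.3 scanner units as a mean of log2 values). By this bound miR-548j-5p was at least 2.44-fold brighter than miR-548j-3p. The arms are read by different probes, so this is no ratio of RNA amounts. For miR-548b-3p the log2 mean over its 4 probes lay below the bound, and no fold is given.

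In the other 18 hairpins neither arm was detected, and no direction was read from them. The 3p means of miR-548e, miR-548ad, miR-548ao, miR-548h and miR-548ay, from 4.07 to 6.91, lay below the brightest negative control probe. With brightness below 1 set to 1, the median log2 difference of 3p minus 5p over the 20 hairpins was 0.12, which was 0.021 after another background correction (normexp) and 0.30 with the brightest probe of each arm. Most of these arms lay at or under that floor, and the arms are read by different probes, so this median is no measure of RNA amount.

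**Figure D5:**
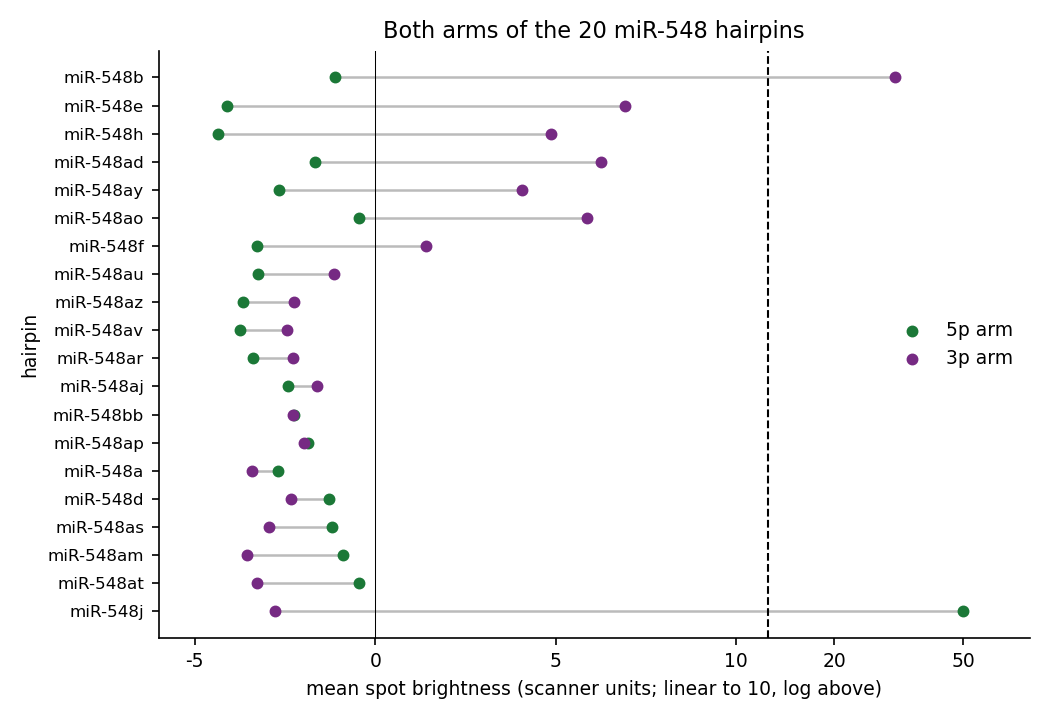
Mean spot brightness (x axis, scanner units, linear to 10 and logarithmic above) of the 5p arm (green) and the 3p arm (purple) of the 20 miR-548 hairpins with both arms on the array (y axis). The dashed line is the negative control level, 12.5. Only miR-548j-5p (49.8) and miR-548b-3p (30.7) lie beyond it, and 5 further 3p arms lie between 4.07 and 6.91.

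The sequences printed above place detected and undetected members side by side. All 49 matched members had different mature sequences, with 28 different seeds. The commonest seed, AAAGUAA, was held by 11 members, of which miR-548j-5p was detected and the others had mean brightness values from -3.38 to -1.12. miR-548ap-5p has the same first 19 bases as miR-548j-5p and ends there, 3 bases short of it. Its mean brightness was -1.85 ± 2.03 (SD, n = 19 spots), and by the same bound miR-548j-5p was at least 2.44-fold brighter. The highest spot of miR-548ap-5p lay below the lowest spot of miR-548j-5p.

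miR-548u differs from miR-548j-3p by 3 edits, counting each base changed, added or removed as 1. The former had a mean of 68.8 and the latter of -2.77, so that miR-548u was at least 3.37-fold brighter by that bound. This fold compares different probes and not amounts of RNA. The 3 members with the seed AAGGUAA spread over the whole lower range: miR-548ag at 18.2, miR-548ai at 9.90 and miR-548ba at -2.86 ± 1.85 (SD, n = 20 spots). miR-548ba shares its first 8 bases with miR-548ag. The 5 members with the seed AAAAACU, all 3p products, were undetected, with mean brightness from -3.56 to -1.43.

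miR-548q, the brightest, was also the farthest from its nearest relative among the 49 matched members, counting edits over whole sequences. That relative, miR-548aj-5p, was 12 edits away, whereas no other matched member was more than 7 edits from its nearest and the other 4 detected ones were 3 or 4. A shifted start or end also counts as edits, and miR-548q and miR-548aj-5p share the stretch ugcaaaaguaau at an offset. miR-548q thus holds the motif AAGUA, which lies outside its seed. This motif was present in 10 of 14 matched 5p members and in 0 of 17 matched 3p members, against 1.41% of 2199 other human miRNAs with a sequence. Its reverse complement UACUU was present in 11 of 17 matched 3p members and in 1 of 14 matched 5p members, also against 1.41% of the others. Both motifs were searched on the RNA strand as printed. Of the members that hold AAGUA, 2 of 18 were detected, and of those that hold UACUU, 1 of 16, beside 5 of all 49 matched members.

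The longest run of bases that a detected member shared with any detected miRNA outside the family was 9, between miR-548q and miR-3619-5p (mean brightness 83.7) and between miR-548j-5p and miR-129-5p (mean brightness 37.8). For miR-548u and miR-548b-3p it was 8, and for miR-548ag 7. The part of cross-hybridization in these signals was not tested. A comparison of base composition was void, since fewer than 80% of members had a sequence.

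The related miRNAs from MADE1 elements were undetected as well. miR-570-3p had spots from -5.08 to 0.54 and a mean of -1.78 ± 1.46 (SD, n = 18 spots). miR-603 had spots from -4.69 to -0.48 and a mean of -2.51 ± 1.25 (SD, n = 18 spots). miR-579-3p had a mean of -2.57 ± 1.35 (SD, n = 19 spots), and miR-579-5p was higher at 8.0 ± 2.72 (SD, n = 20 spots), with 0 spots well above background. Of these 4 products, 0 carried the flag.

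Other miRNAs that descend from repeats were detected more often. A list of 29 other products whose precursors derive from repeats was drawn up from general knowledge. Of these, 17 were detected (58.6%), a share near the 56.8% of all human miRNAs. Many of the detected ones were miR-1273 products, of which only miR-1273a was undetected. Products of the same family are not independent. The brightest were miR-1273c at 2091 ± 693 (SD, n = 20 spots), miR-1273g-3p at 1993 ± 377 (SD, n = 18 spots) and miR-378a-3p at 1110 ± 173 (SD, n = 20 spots). miR-1273 precursors overlap Alu elements, which are far more abundant in the genome than MADE1.

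The normalized log2 values that the authors deposited for the same array had the same division. All 64 undetected members held the lowest value in the table, 2.32, and the software had given each of them a total signal of 0.1. The detected members had deposited log2 values of 5.13 (miR-548q), 4.23 (miR-548u), 3.81 (miR-548j-5p), 3.26 (miR-548b-3p), 2.80 (miR-548aw) and 2.57 (miR-548ag). Their order was that of the total signals. The deposited values and the total signals come from the same scan, so the shared division and order are no separate evidence. The lowest value is a floor and says only that the miRNA was not measured above it.

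The labelled cell type was checked on a mixed list of epithelial and intestinal miRNAs. Of its 10 miRNAs, 8 were detected (80%), with mean brightness over the list from 0.21 to 3024 (miR-141-3p). Among its miR-192, miR-194 and miR-215 entries, miR-215-5p (mean brightness 45.9) was detected. In contrast, miR-192-5p (mean brightness 5.46) and miR-194-5p (mean brightness 0.21) were not, so the 80% does not describe intestinal miRNAs alone. Of 13 miRNAs typical of blood, stroma, muscle, brain or liver, 8 were also detected (61.5%), near the 56.8% of all human miRNAs, with mean brightness over the list from -2.04 to 77.2. The 8 detected were miR-124-3p (77.2), miR-126-3p (58.9), miR-145-5p (37.0), miR-206 (26.7), miR-223-3p (16.5), miR-142-3p (15.3), miR-133a-3p (14.2) and miR-150-5p (12.2). Those undetected were miR-451a, miR-143-3p, miR-1-3p, miR-9-5p and miR-122-5p. The ranges of the epithelial list and of this list overlapped, so brightness alone did not separate them. The mean brightness of 5 of the 6 detected miR-548 members lay within the range of the 13, and miR-548q lay above it. The part of other cell types in these signals was not tested.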

How the data were processed

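Total RNA from 1 sample of DLD-1 cells with the control plasmid was read on an Agilent single-colour array, and the group was taken from the sample title. Per the file headers, the deposited spot intensity values came from Agilent Feature Extraction 11.0.1.1, which subtracted background, marked outlier spots and set the flags; these other columns hold 0 or 1. The authors also deposited log2 values that were quantile normalized in GeneSpring GX, per the methods, without naming the arrays normalized together.

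Control spots and outlier spots (58 of 1400 member spots, 4.14%) were left out, and no spot was saturated. Spots of each probe were averaged. For log2 signals, brightness below 1 was set to 1, log2 values were averaged over spots and then over probes, and the 75th percentile of 2567 detected probes (248.8 scanner units) was subtracted. SDs and standard errors were taken over spots, which are technical repeats within 1 array; the number of arrays limits the precision.

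The rule for members used no measured value, but members and lists were chosen with earlier results of these data known. The rule for named miRNAs took all members above the negative controls, their other arms and those of identical sequence (0 among the 49 matched). It also took the 5 just above the limit and the MADE1 relatives. Members whose probes differed by over 1 on the log2 scale with every spot well above background were included too (0). Further names were picked after their values were seen. Sequences and positions came from RefSeq (GRCh38.p14), which matched 49 members. Alternatives changed the detection criterion, background level, signal, scaling, outlier spots and probe summary; normexp in limma 3.58.1 (R 4.3.3, offset 50) used median spot signals, because the scanner output has no mean ones. Values were computed with pandas 2.3.3 and numpy 2.4.6 under Python 3.11.15, and the summary step was tested on simulated data.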

Additional observations from a re-analysis of the deposited data

How the results depend on the processing

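The 6 detected members were 13 when 0.5 or more of a probe's spots had to be positive and significant, which also turned the arm difference in detection, 5p minus 3p, from 0.18 to -20.7 percentage points. The stricter criteria gave 5 and 4 members and kept the arm difference. The count above the negative controls ranged from 4 to 6 over the planned levels, probe summaries and outlier settings, and was 11 without the flag and without the brightest negative control probe, an alternative chosen after seeing the data.

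The median log2 signal of members relative to the 75th percentile, -7.94, became -2.42 after normexp correction (offset 50), -7.82 with outlier spots kept and -6.15 with the percentile over all human probes. With that percentile miR-548q turned from -0.99 to 0.80. The median log2 difference of 3p minus 5p, 0.12, was 0.021 after normexp and 0.30 with the brightest probe of each arm. No pair had both arms detected, and no mature sequences were identical among the 49 matched members. Those alternatives therefore gave no value, and that on base composition was void. Brightness under 12.5 lay within the spread of single negative control spots. Without the brightest negative control probe this 99th percentile was 5.58, and 5 undetected members had a probe mean above it. Between these levels, signal at low level and background of a probe cannot be told apart. No paired analysis was possible because a single control array was analysed.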
